A study of Paxillus involutus and Laccaria bicolor with 24 samples.

Results

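The 50 gene models of *Paxillus involutus* that drew the most sequencing reads are described here. They were chosen by 1 measured value, the mean over 12 libraries of CPM (counts per 1000000, that is, the reads on a model for each 1000000 reads counted in that library), and they are 50 of the 17968 models in the count table. All 50 had counts far above the minimum mean count of 11 that was set for testing. Because the level chose them, their levels and shares are given as a description with no test, and only changes between time points were tested. A model can reach a high mean through 1 time point, and a change from that time point is then not independent of the choice.

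The mycelium was of *P. involutus* strain ATCC 200175, an ectomycorrhizal fungus, that is, one whose hyphae sheath tree roots and trade soil nutrients for the tree's sugar. Cultures were grown without a host on glass beads, starved of nitrogen, and then given a hot water extract of forest soil organic matter supplemented with glucose. All groups share the strain, the starvation and the extract, and differ only in the time on it. The groups, with 3 replicates each, are t1 (day 2, active growth), t2 (day 5, ammonium depleted), t3 (day 9, glucose depleted) and t4 (day 13, prolonged glucose depletion). Cultures without the extract were not analysed here, so a change over time cannot be told apart from ageing of the mycelium. A second species, *Laccaria bicolor*, was sampled in the same design, on other days after t1. Its cultures had been grown longer before the starvation than those of *P. involutus*.

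In growing fungal cells a small number of transcripts usually makes up a large part of the messenger RNA. In many fungi these include transcripts for ribosomal proteins, translation factors, enzymes of central carbon metabolism and small secreted proteins, and the makeup of the abundant class is known to follow the supply of carbon and nitrogen. Which of these the members described here are is not given, because none of the 17968 model identifiers matched the reference gene table, which holds 18033 genes. The members are therefore called by their rank in mean CPM, 1 being the highest. The identifier is given for 2 members that fell and 2 that rose.

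The libraries held between 9843577 and 13595446 counted reads, and 13721 models had at least 1 read. A member had between 2340 and 281444 reads in a library, so counting error was small. Its expected SD on the log2 scale, averaged over the libraries of a member, was at most 0.0222. Counts are of reads, and model lengths were not used. A long transcript draws more reads than a short one at the same number of molecules, so the ranks order reads and not molecules. A CPM is also a share of the reads, so less of a transcript and more of all others cannot be told apart.

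The 50 members, 0.278% of the models, took 13.8% of all counted reads on average. The distribution was uneven even among them. Rank 1 alone held a mean of 1.81% of the reads, the first 3 ranks together held 4.53%, and the first 10 held 6.77%. Below rank 3 the levels dropped by a step, with a ratio of 2.65 between the mean CPM of ranks 3 and 4. Between ranks 1 and 50 the ratio was 14.6, and the first 11 ranks held 50% of the members' reads. The next 50 models brought the share to 18.8%, and the first 500 models held 37.7%.

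The share of reads on the members was lower at each later time point, and no library of a later time point reached the share of any library of an earlier one. At t1 the 3 libraries had 15.5%, 15.4% and 15.6% of their reads on the 50 members (mean 15.5% ± 0.118, SD, n = 3). At t2 the share was 14.8% ± 0.151 (SD, n = 3), with libraries between 14.6% and 14.9%. The t3 libraries lay between 13.5% and 13.8% (mean 13.7% ± 0.169, SD, n = 3). At t4 the shares were 11.7%, 11.4% and 11.1% (mean 11.4% ± 0.302, SD, n = 3). The widest 95% Wilson interval of a library's share reached 0.0221 percentage points to either side, which covers counting error only. The spread between replicates was wider than this.

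The blocks of ranks did not fall in step. Ranks 1 to 3 held 4.98% ± 0.190, 5.18%, 4.67% and 3.28% at t1 to t4 (n = 3 each), so that their decline came after t2, most of it between t3 and t4. Ranks 4 to 10 held 2.47%, 2.30%, 2.30% and 1.91% in the same order. Ranks 11 to 50 lost reads at every step, from 8.04% to 7.31%, 6.75% and 6.20%. A decline was not particular to the members: ranks 51 to 100, which were not members, went from 5.69% at t1 to 5.31%, 4.73% and 4.04%.

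**Figure D1:**
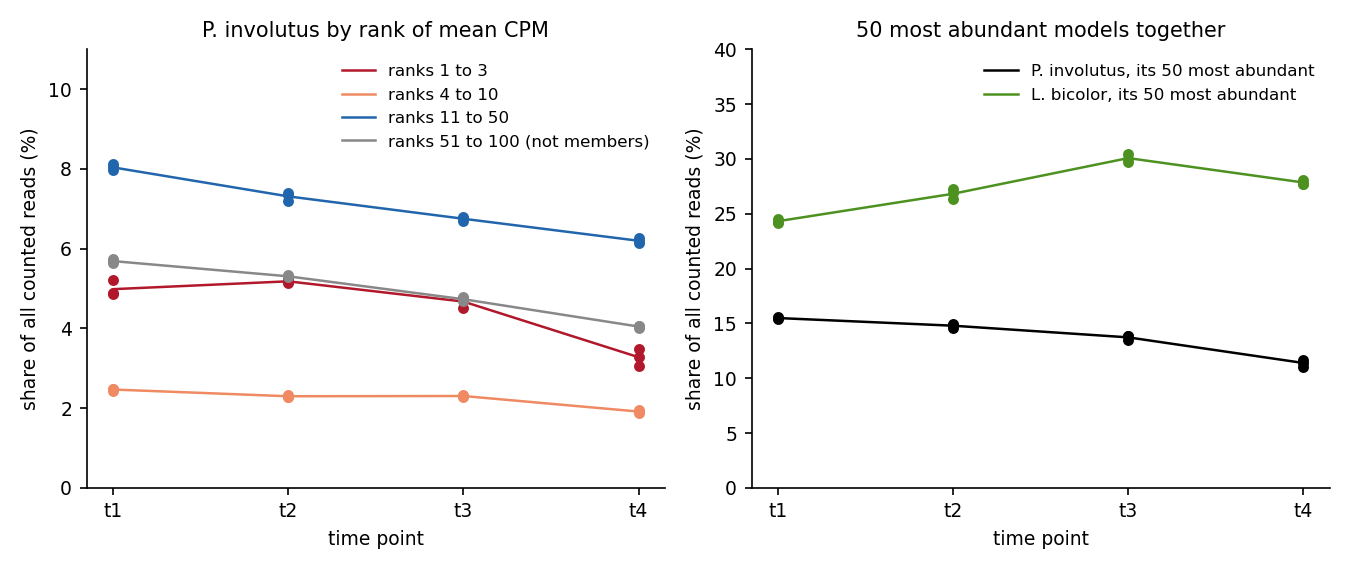
Share of all counted reads in each library (y axis, percent) at t1 to t4 (x axis); points are the 3 libraries of a time point and lines join their means. On the left, ranks 1 to 3 held 4.67% or more until t3 and 3.28% at t4, while ranks 11 to 50 went from 8.04% to 6.20%; on the right, the 50 members went from 15.5% to 11.4% and the 50 most abundant models of *L. bicolor* from 24.3% to 27.8%.

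Rank 1 (model e_gw1.4.392.1) was the most abundant model at every time point. The t1 libraries had 20193, 19188 and 18564 CPM and the t2 libraries 22346, 20361 and 20083. At t3 the CPM was 18305, 18413 and 20198, followed by 14516, 14197 and 11247 at t4. All 3 t4 libraries were below all others. The log2 fold change at t4 against t3 was -0.55 ± 0.08 (SE, edgeR adjusted p = 5.2e-05), and that at t4 against t1 was -0.81 ± 0.08 (edgeR adjusted p = 1.0e-07). The earlier steps did not pass the 1% threshold on the false discovery rate.

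Rank 2 held between 17819 and 20701 CPM at t1 and between 18409 and 19621 at t2. It was at 16979, 15682 and 15875 CPM at t3 and at 11840, 10949 and 11166 at t4. Here the fall began 1 step earlier than for rank 1: the t3 libraries lay below every t1 and t2 library, and the t4 libraries lower still. Its log2 fold change was -0.31 ± 0.07 at t3 against t2 (edgeR adjusted p = 0.00098) and -1.01 ± 0.07 at t4 against t1. Rank 3 overlapped between t1, t2 and t3, with 10729 to 12746 CPM over those 9 libraries, and was at 8556, 7765 and 8063 CPM at t4. Its log2 fold change at t4 against t1 was -0.79 ± 0.08. Ranks 1, 2 and 3 kept these places at all 4 time points.

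Ranks 4 and 5 were next at t1 and had different courses. Rank 4 went down at every step, from 5479, 5372 and 5168 CPM in the t1 libraries to 4958, 4827 and 4594 in those of t2. It reached 3586, 3575 and 3586 CPM by t3, then 2653, 2595 and 2422 by t4. No 2 time points overlapped, and by t4 it was ranked 10. Rank 5 dropped most between t1 (5237, 5328 and 4685 CPM) and t2 (3427, 3277 and 3136 CPM), with a log2 fold change of -0.80 ± 0.07. After t2 its steps did not pass the threshold, and its t3 libraries (3315, 3295 and 3269 CPM) lay within the range of those of t2. Its t4 libraries (2935, 3125 and 2743 CPM) were below all of those (log2 fold change t4 against t3 -0.21 ± 0.07, edgeR adjusted p = 0.017).

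Rank 6 (model gm1.845_g) was the only one of the first 10 that rose. It had 2126, 2138 and 1739.9 CPM at t1, followed by 2510.0, 2365 and 2483 at t2. The t3 libraries had 3609, 3686 and 4065 CPM, those of t4 4358, 4341 and 3525. The t3 and t4 libraries were all above those of t1 and t2, and its place was 26 in the t1 ranking, 4 by t3 and 5 by t4. The step from t2 to t3 passed the test (log2 fold change 0.56 ± 0.09, edgeR adjusted p = 4.0e-05), and the log2 fold change at t4 against t1 was 0.75 ± 0.09.

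Ranks 7, 9 and 10 held their level until t3 and were lower at t4. Rank 7 showed the sharpest drop of these, with 3186.5 to 3837 CPM over the 9 libraries of t1 to t3 and 1782, 1853 and 1879 CPM at t4 (log2 fold change t4 against t3 -0.89 ± 0.07). Rank 10 was at 2122, 1927 and 1993 CPM at t4, after 2844.5 to 3624 CPM before (log2 fold change t4 against t3 -0.62 ± 0.07). Rank 9 moved less: its libraries had 2766 to 3311 CPM before t4 and 2549.7, 2398 and 2525 CPM at t4 (log2 fold change t4 against t3 -0.27 ± 0.06). For all 3 models the t4 libraries were below every earlier one.

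Rank 8 was the only member that did not pass the test over the whole time course (edgeR adjusted p = 0.083). Its t1 libraries had 3058, 2867 and 2627 CPM, those of t2 2653, 2525 and 2621. The values were 2849.6, 3679 and 2896 CPM by t3, then 2734, 3245 and 3688 by t4. The replicates of t3 and of t4 lay far apart, and their ranges overlapped with that of t1. The log2 fold change at t4 against t1 was -0.10 ± 0.10.

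Over the time course, tested with the 3 time point coefficients together, 49 of the 50 members changed at a false discovery rate of 1%, beside 70.9% of the 12032 tested models of all levels. Of the next 50 models by rank, 47 changed. Models with many reads carry less counting error, and its part in the share of calls was not tested.

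The members that changed between neighbouring time points were mostly lower at the later one. At t2 against t1, 8 members were higher (14.1% of all tested models were) and 23 were lower (18.0% of all). At t3 against t2, 9 were higher (18.6% of all) and 21 lower (19.1% of all). The last step, t4 against t3, had 4 members higher (11.8% of all) and 25 lower (13.3% of all), so 50% of the members fell there. The median log2 fold change of the members was -0.23, -0.16 and -0.29 at the 3 steps, against 0.00, 0.01 and -0.01 for all tested models. Among ranks 51 to 100 it was -0.14, -0.24 and -0.35. At each step the medians of the members and of the next 50 ranks were both below that of all models.

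These folds were scaled by the trimmed mean of M values (TMM), which sets the bulk of models to no change. The choice bears on the first step, because the TMM factors were 0.883 to 0.895 in the t1 libraries and 0.991 to 1.08 in all others. With the library size alone the median log2 fold change of all tested models would be 0.16 at t2 against t1 and 0.30 at t4 against t1, against 0.00 and 0.04 with TMM. On that scale 14 members were higher and 15 lower at t2, in place of 8 and 23. At t3 against t2, 13 were higher and 19 lower, in place of 9 and 21. The share of all tested models called on that scale was not counted.

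Over the whole interval, t4 against t1, 10 members were higher (32.2% of all tested models were) and 35 were lower (30.5% of all). The difference widened among larger changes: 21 members were at least 2-fold lower (10.0% of all tested models), and 1 member, rank 25, was at least 2-fold higher (9.11% of all). The median log2 fold change was -0.80 for the members, -0.91 for ranks 51 to 100, of which 36 were lower and 9 higher, and 0.04 for all tested models. The fall was thus seen in the next 50 ranks as much as in the members. The median of all models cannot show whether the bulk fell too, because TMM sets it near no change.

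The highest mean CPM lay at t1 for 24 members, at t2 for 12, in the t3 libraries for 3 and in those of t4 for 11. The lowest lay at t4 for 30 members. For 15 members the mean CPM fell at every step, and for 7 it rose at every step. By the test, 8 members (ranks 4, 14, 18, 34, 38, 40, 46 and 50) fell at each of the 3 steps, a course shown by 3.16% of all tested models. None rose at all 3 steps, as 0.848% of all tested models did. A further 7 members (ranks 1, 3, 7, 9, 10, 11 and 22) changed at the last step only, all downward, compared with 2.15% of all tested models that fell and 3.62% that rose at that step alone. No single step passed the threshold for 6 members (ranks 8, 29, 31, 44, 48 and 49), compared with 40.7% of all tested models. The ratio of a member's highest to its lowest mean CPM among time points ranged from 1.24 to 16.3 with a median of 1.93. It was below 1.5 for 13 members, at least 2 for 24, and at least 4 for 4.

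**Figure D2:**
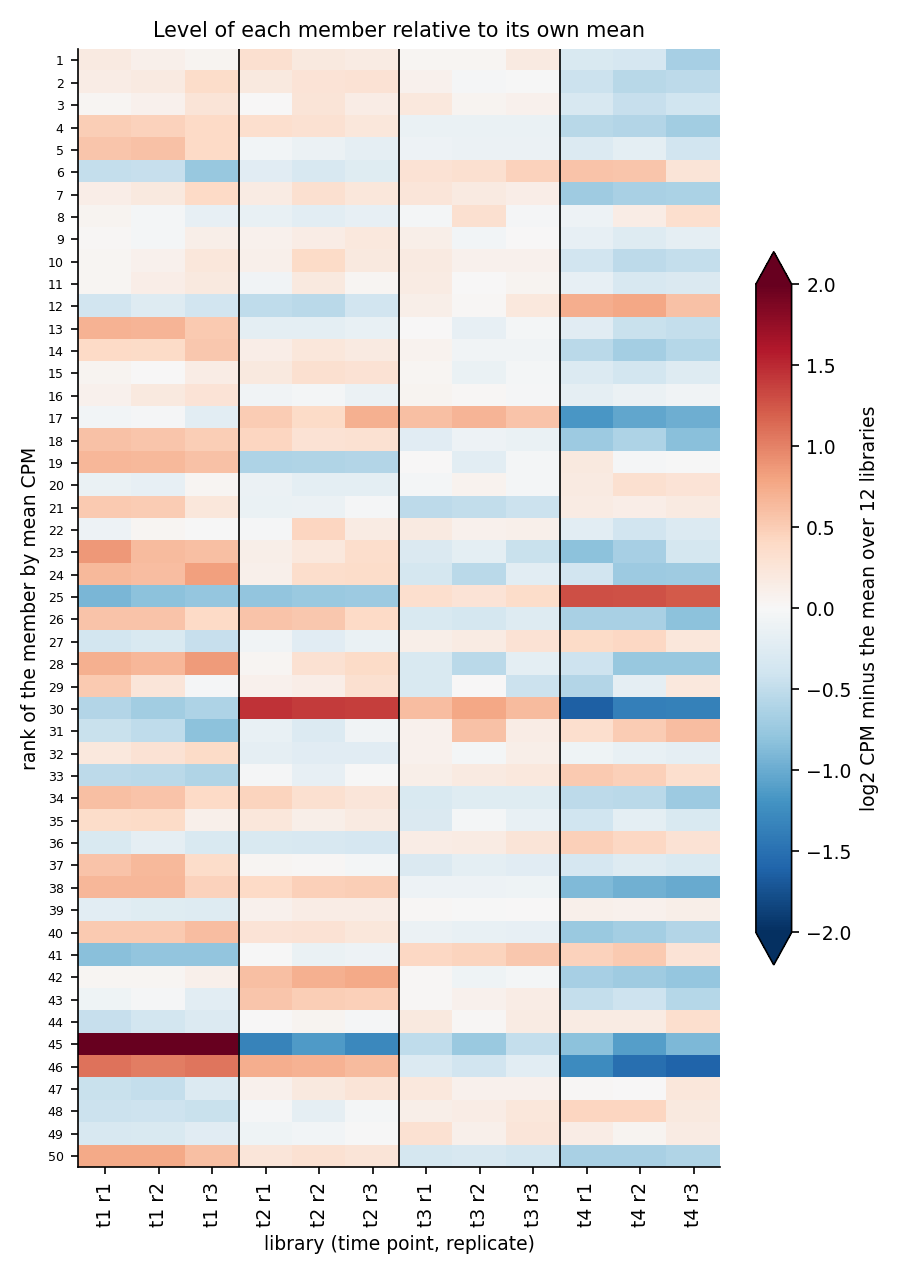
The 50 members (rows, by rank) in the 12 libraries (columns, by time point and replicate), coloured by log2 CPM minus the member's own mean over all libraries, with the scale ending at 2 in either direction. Many of the 35 members lower at t4 than at t1 are red in the t1 columns and blue in the t4 columns, with exceptions such as rank 30, which peaks at t2, and the strongest contrasts are in ranks 45, 30, 46 and 25.

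Rank 45 (model gm1.13900_g) had the largest ratio of highest to lowest mean CPM, and nearly all of its change fell in 1 interval. It had 4065, 3639 and 4683 CPM at t1 and 238, 276 and 247 at t2, a log2 fold change of -4.19 ± 0.11 (edgeR adjusted p = 3.4e-14). This was the lowest log2 fold change at that step among all 12032 tested models. It then stayed low, with 423, 358 and 432 CPM at t3 and 343, 281 and 322 at t4, and its log2 fold change at t4 against t1 was -3.99 ± 0.11. Its place at t1 was 6, and its later places were 704, 325 and 528. Its place among the 50 rested on the t1 libraries alone, and it was the only member found among the 50 most abundant models at just 1 time point. Its fall from t1 is therefore not independent of how the members were chosen.

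Rank 30 was a transient. From 807, 749 and 788 CPM in the t1 libraries it went to 3293, 3213.5 and 3148 in those of t2, then to 1852, 2084 and 1888 by t3 and 393, 468 and 478 by t4. No 2 time points overlapped. It rose at t2 (log2 fold change 1.88 ± 0.07, the largest rise of a member at that step) and fell at both later steps, with log2 fold changes of -0.80 ± 0.07 and -2.16 ± 0.08. The last was the largest fall of a member at t4 against t3, and it left the model below its t1 level.

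Rank 25 (model fgenesh1_kg.6_#_158_#_isotig02309) showed the largest rise over the interval. It had 888, 942 and 979 CPM at t1 and 963, 998 and 1007 at t2, then 2114, 2011 and 2161 at t3 and 4079, 4012.5 and 3888 at t4. The level did not change detectably before t3 and was about the same in all replicates of a time point. Both later steps were the largest rises among the members, with log2 fold changes of 1.01 ± 0.05 and 0.89 ± 0.05. Its log2 fold change at t4 against t1 was 1.82 ± 0.06 (edgeR adjusted p = 9.2e-15), and its place moved from 117 to 6.

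The other members with the largest net rise were ranks 41, 31, 12 and 6. Rank 41 rose early, from 709.6, 728 and 729 CPM at t1 to 1253, 1154 and 1181 at t2 and 1676, 1713 and 1826 at t3, and had 1732, 1814 and 1518 at t4 (log2 fold change t4 against t1 0.95 ± 0.06). Rank 12 rose late: it had 1736 to 2101 CPM over t1 and t2, then 2735, 2552 and 2917 at t3 and 4181, 4317 and 3766 at t4 (0.76 ± 0.07). Rank 31 had 1077, 1031.5 and 837 CPM at t1 and 1852, 2088 and 2263 at t4 (0.80 ± 0.12), although no single step of its course passed the threshold. In all of them every t4 library was above every t1 library.

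After rank 45, the largest net falls were in ranks 46, 38, 28 and 50, and these were gradual. Rank 46 had 2209.9, 2116 and 2184 CPM in the t1 libraries, then 1727, 1684 and 1615 by t2. By t3 the CPM was 857, 793 and 893, followed by 433, 366 and 341 by t4. Its step from t2 to t3 (log2 fold change -1.05 ± 0.07) was the largest fall of a member there, and its net log2 fold change was -2.79 ± 0.08. Rank 38 went from 2021, 2016 and 1746 CPM at t1 to 688, 651 and 634 at t4 (-1.83 ± 0.06). Rank 28 went from 2459.7, 2375 and 2692 CPM to 1123, 888 and 886 (-1.65 ± 0.10), and rank 50 from 1971, 1973 and 1769 CPM to 745, 739 and 766 (-1.62 ± 0.06). The t1 and t4 libraries did not overlap for any of these models.

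**Figure D3:**
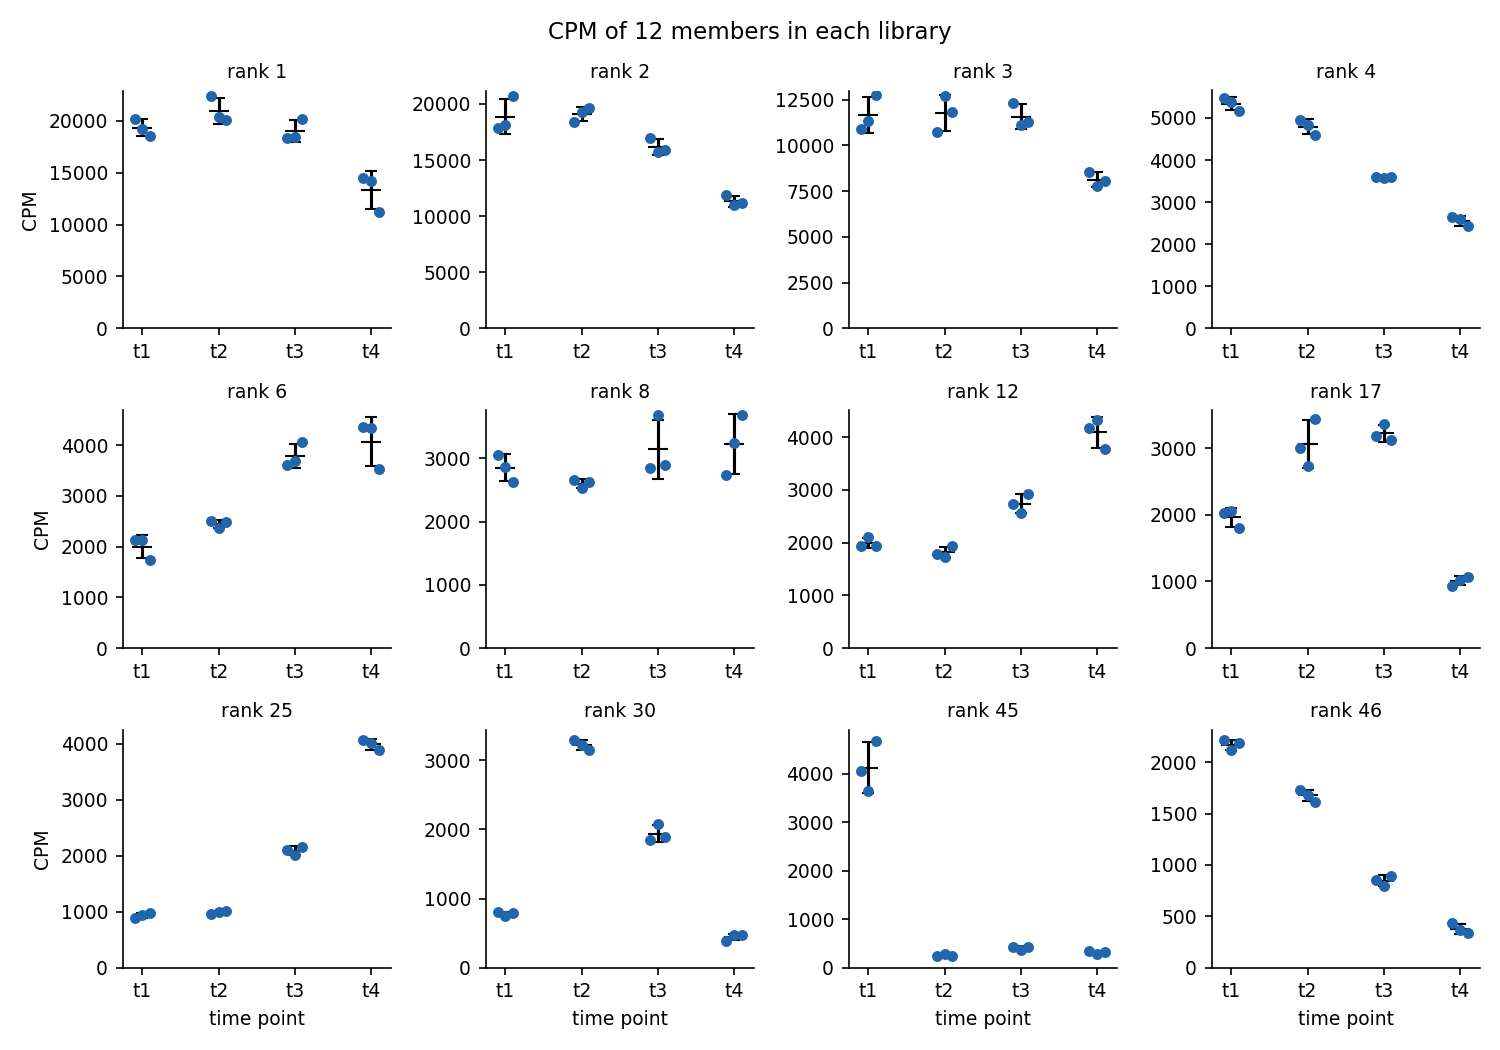
CPM (y axis, linear, each panel with its own scale from 0) of 12 members at t1 to t4; points are the 3 libraries, the horizontal tick is their mean and the bar 1 SD to either side. Rank 45 fell from a mean of 4129 to 254 CPM between t1 and t2, rank 30 peaked at t2, rank 25 rose from t3 on, and the t1, t3 and t4 libraries of rank 8 overlapped.

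Some courses turned. Rank 17 was at 2023, 2055 and 1802 CPM at t1, rose to 2993, 2735 and 3442 by t2, had 3181, 3365 and 3118 by t3 and dropped to 935, 1025 and 1068 by t4. The log2 fold change at the last step was -1.72 ± 0.08. Rank 21 had the opposite course, with 3085, 3056 and 2514 CPM at t1, 1492, 1535 and 1595 by t3 and 2416, 2368.5 and 2428.5 at t4. It was the only member to fall at the first 2 steps and rise at the last (log2 fold change at the last step 0.60 ± 0.07). Ranks 17 and 21 were singled out after their values were seen.

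Membership of the most abundant class changed over the course. Ranked at single time points, 86 models were among the 50 most abundant at 1 or more time points, and 24 were at all 4, each of them a member. Members filled 36, 40, 43 and 36 of the 50 places at t1 to t4. The lists of t1 and t4 shared 25 models, whereas those of t3 and t4 shared 41. A further 36 models that reached the first 50 at some time point were not members.

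At the threshold the levels were close. Ranks 49 and 50 had mean CPM of 1250.1 and 1242, and ranks 51 and 52, just outside, had 1238 and 1235. Rank 49 had 1017 CPM at t1 and 1347 at t4. The other 3 were all lower at t4: rank 50, just inside, had 1904 and 749.8 CPM, rank 51 had 1839.6 and 367, and rank 52 had 1914 and 516. Leaving out any single library changed 1 to 3 of the 50 members.

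Within time points the replicates of most members lay close together. The SD of log2 CPM within time points ranged from 0.025 for rank 39 to 0.27 for rank 29, with a median of 0.086 over the members. The largest counting SD of a member, averaged over its libraries, was 0.0222. Rank 39 was the steadiest, at 1180.2, 1164 and 1141 CPM at t1 and 1469, 1463 and 1491 at t4. Rank 29 had 2256, 1853 and 1537 CPM at t1 and 1041, 1378 and 1802 at t4, so that its t1 and t4 libraries overlapped although its log2 fold change of -0.69 ± 0.16 passed the threshold (edgeR adjusted p = 0.0010).

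The spread of rank 29 was shared with other members. In the second library of t3, log2 CPM was above the mean of the time point by 0.24 for rank 8, 0.25 for rank 29 and 0.31 for rank 31. In the third library of t4 it was higher by 0.21, 0.39 and 0.14 for these models and by 0.26 for rank 23, and in the first library of t4 the deviations were -0.23 for rank 8, -0.40 for rank 29, -0.15 for rank 31 and -0.20 for rank 23. On the CPM scale these models deviated together between replicates. Ranks 24 and 28 formed a second such pair, with the first library of t4 above the mean by 0.22 and 0.23 and the second library of t3 below it at -0.17 and -0.19. The number of reads on rank 28 per read on rank 24 stayed between 0.724 and 0.793 in all 12 libraries, while both models fell by more than 2-fold over the course. In the third library of t4, ranks 1 and 6 were both low, at -0.23 and -0.20. On the scale of counts divided by the deposited factors, described below, the deviations differed in part. In the second library of t3 they were 0.24 for rank 29 and -0.23 for rank 31. In the first library of t4 they were -0.051, -0.051, -0.19 and -0.19 for ranks 8, 23, 29 and 31. Those in the third library of t4 were 0.036, 0.036, 0.12 and 0.12. Rank 18, which was not picked here, had the values of rank 31 in these libraries of t4, -0.19 and 0.12. Its deviations in CPM were -0.0017 and -0.11 there. The common sign at t4 on this scale was therefore not particular to these models. Ranks 8 and 23 are limited here, because after division they were at a maximum shared with other models in 10 and 12 of the 12 libraries. The SD within time points was 0.033 for rank 24 and 0.075 for rank 28, against 0.16 and 0.17 in CPM. The models were picked for this after their values were seen, and what moved with the deviations was not tested.

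**Figure D4:**
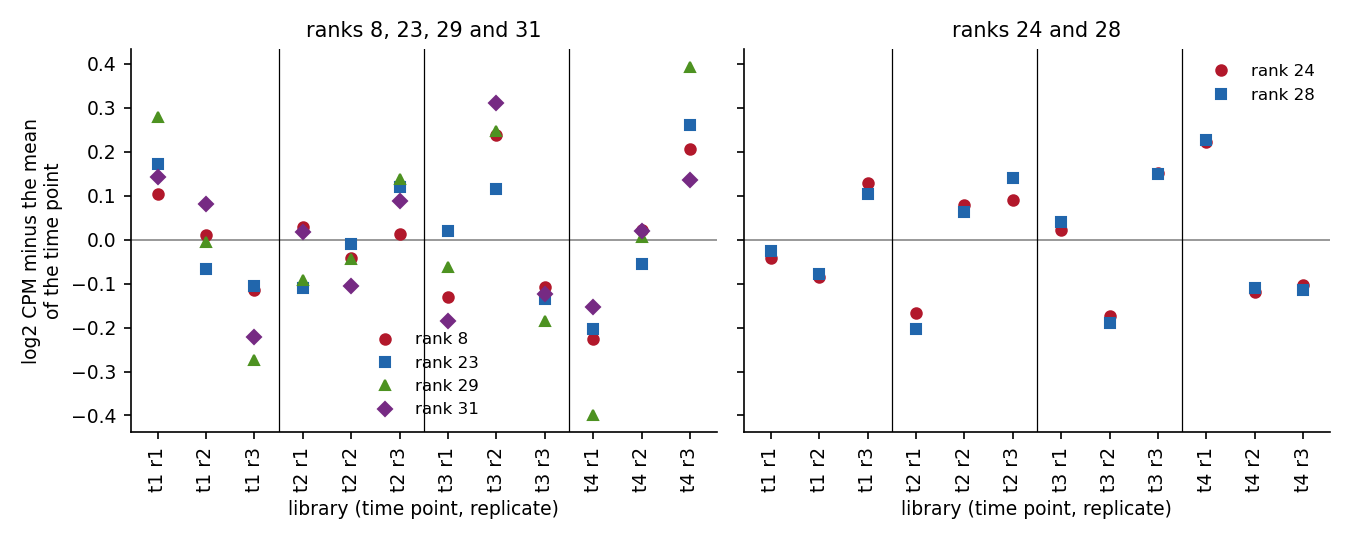
Log2 CPM minus the mean of the time point (y axis) in each library (x axis, time point and replicate) for ranks 8, 23, 29 and 31 on the left and ranks 24 and 28 on the right. Ranks 8, 29 and 31 were all high in the second library of t3 and all low in the first of t4, and ranks 24 and 28 moved together, from -0.20 to 0.23.

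Ranks 13 and 19 carry the same protein identifier in their model names, and they are the only 2 models in the table that do. Reads that aligned to more than 1 transcript were dropped before counting, so the counts of near-identical copies hold only reads that tell them apart and are uncertain, and sequences of the models were not used here. Rank 13 had 4072, 4042 and 3619 CPM at t1 and rank 19 had 3426, 3392 and 3233. At t2 they were at 2199, 2214 and 2265 and at 1407, 1422 and 1438. The ratio of rank 19 to rank 13 within a library was 0.858 ± 0.031, 0.639 ± 0.0038, 0.850 ± 0.013 and 1.16 ± 0.030 at t1 to t4 (SD, n = 3 each). The ratio changed between time points by more than its spread between replicates, so the 2 models did not keep 1 course: both fell at t2, and rank 19 then rose at t3 (log2 fold change 0.46 ± 0.07) while rank 13 did not pass the test there (0.05 ± 0.07).

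The model names of the members differed in kind from those of the whole table. Of the members, 20 have names that begin with fgenesh1_kg (40%), compared with 16.0% of all models and 22.8% of those tested, and none begins with estExt, compared with 23.6% of all models and 33.7% of those tested. What the prefixes stand for was not given in the sources used here. Of the 20, 16 were lower at t4 than at t1 and 2 were higher, beside 35 and 10 of all 50 members and 30.5% and 32.2% of all tested models. A protein identifier stood in the names of 6 members (ranks 2, 3, 7, 13, 18 and 19). All 6 were lower at t4, as were 70% of the members, and with the factors described next ranks 2 and 19 were higher.

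The authors also deposited a factor for each model and library, which adjusts for length, G/C content and depth. The factors of the members were high: their mean over the libraries ranged from 0.758 to 21.3 with a median of 1.77 and was above 1 for 47 of the 50, against a median of 0.839 over all models with a factor. The highest was that of rank 3. Ranked by counts divided by the factors, only 17 of the 50 members stayed among the first 50 models, whereas 48 did by the deposited log2 values. The factors were made from the counts that chose the members, so neither their height nor the drop to 17 is independent of the choice.

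For several members the factors also moved over time together with the counts. Between t1 and t4 the factor of rank 25 went from 0.491 to 2.71, a ratio of 5.52, while its mean CPM rose 4.26-fold. The factor of rank 6 rose by a ratio of 2.67 and its CPM 2.04-fold, and that of rank 4 changed by a ratio of 0.473 with a CPM ratio of 0.479. After division by the factors, exactly 50 models in every library shared the highest value of that library to within 0.1%, and between 12 and 17 of them were members. Ranks 16, 23, 25 and 42 were at the shared value in all 12 libraries, so that dividing by the factors gave them 1 common course whatever their counts did. In all, 26 members were at it in at least 1 library.

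With these factors in place of TMM, 8 members were higher and 30 lower at t4 than at t1. The share of all tested models called with the factors was not counted, so whether these counts are particular to the members is not known. Of 36 members called under both settings, 7 were called in opposite directions (ranks 2, 6, 11, 19, 22, 25 and 27). Ranks 6, 16, 23, 25 and 42 all had a log2 fold change of -0.55 on this scale, whereas their log2 fold changes with TMM ran from -1.58 to 1.82. The falls of ranks 45 and 46 held under both settings, at -2.33 and -2.85 with the factors.

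**Figure D5:**
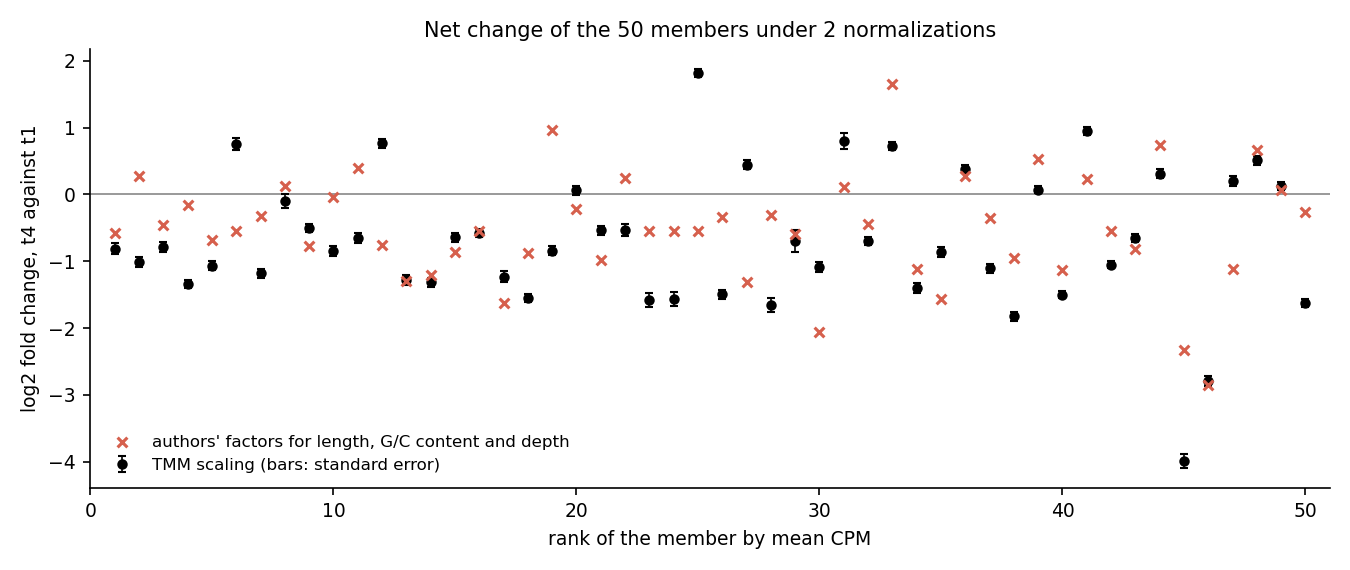
Log2 fold change at t4 against t1 (y axis) of the 50 members by rank (x axis), with TMM scaling (black points, bars 1 standard error to either side) and with the factors of the authors (red crosses). Most black points lie below 0, rank 25 stands at 1.82 with TMM and -0.55 with the factors, and ranks 45 and 46 are low under both.

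In *L. bicolor* the 50 most abundant models, chosen in the same way, held a larger share of the reads, which was higher at t4 than at t1 and highest at t3. Its means at t1 to t4 were 24.3% ± 0.196, 26.8% ± 0.482, 30.1% ± 0.379 and 27.8% ± 0.171 (SD, n = 3 each). The days of sampling after t1 and the time grown before the starvation differed between the species, and models were not matched between them.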

How the data were processed

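Of 24 libraries of 2 species, the 12 of *P. involutus* were used, and the *L. bicolor* counts gave only a comparison of shares. The authors aligned single 50-base reads to the predicted gene models with TopHat2 (2.0.13) and counted reads on coding sequence, by strand, with HTSeq (0.6.1), after dropping reads with more than 1 transcriptome hit. The deposited counts are whole reads per model with no normalization. The deposited factors are ratios around 1 that the authors made with EDASeq and DESeq2 (1.14.1). The deposited log2 values are regularized log counts and were used for ranking only.

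CPM was the count divided by the column sum, times 1000000. The 50 models with the highest mean CPM were taken. Models whose mean count reached 11 (12032 of 17968) went into the edgeR quasi-likelihood test (edgeR 4.0.16, R 4.3.3) with TMM scaling, fitted to all 12 libraries with time point as the only factor, at a Benjamini-Hochberg false discovery rate of 1% over all tested models. The script was tested on simulated data.

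The labels call the replicates biological, and p-values measure the spread between these cultures. Replicate numbers did not pair the libraries. Named members were ranks 1 to 10, the 5 largest net rises and falls among members called and not overlapping between t1 and t4, the largest rise and fall at each step, members not called over the course, and ranks 49 to 52. Members and lists were chosen with earlier results of these data known. Alternatives were other scalings, DESeq2 (1.42.0), no filter, a rate of 5%, a replicate block and each library left out.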

Additional observations from a re-analysis of the deposited data

Results flagged for a closer look

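The change in the share of reads on the 50 most abundant models from t1 to t4 had opposite signs in the 2 species. It was -4.10 percentage points in *P. involutus*, where every t4 library was below every t1 library, and 3.53 percentage points in *L. bicolor*, where every t4 library was above every t1 library. This contrast between the species was not tested. The models were chosen on the same counts, and the sampling days differed, with t4 at day 13 in *P. involutus* and day 30 in *L. bicolor*. The *L. bicolor* cultures had also been grown longer before the starvation.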

How the results depend on the processing

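Counts of members called kept within 1.5 times of the reported ones with DESeq2 size factors, the DESeq2 test, no filter, a rate of 5% and the replicate block, which gave 10 members higher and 35 lower at t4 than at t1, as without it. Deviations of libraries with the same replicate number had correlations of -0.33 to 0.07 between time points, so the block pairs by number only. With the library size alone, 14 members were higher and 15 lower at t2 than at t1. The shares of all tested models called with it or with the authors' factors were not counted. With the authors' factors, 41 members changed over the course, 3 were higher at t2 than at t1, 3 higher and 5 lower at t3 than at t2, and 10 lower at t4 than at t3. Among the named members called with TMM, the log2 fold change at t4 against t1 reversed on that scale for ranks 2 (0.27), 6 (-0.55), 12 (-0.76) and 25 (-0.55). For rank 25 it was -0.074 at t3 against t2 and -0.21 at t4 against t3. After division ranks 25 and 6 were at the shared library maximum in 12 and 11 of 12 libraries, and ranks 2 and 12 in 3 each. The cause of the reversals was not tested. Over all alternatives, left-out libraries included, 437 fold changes of named members kept their call, and those called kept their direction. A further 7 lost the call and 6 reversed, these 2 kinds with these factors only. A change of sign in a member called in neither setting was counted among the 437. Rank 8, which was not called, ran from -0.21 to 0.019 at t4 against t1 over the left-out libraries. The share of reads on the members was 13.8%, 13.0%, 12.1% and 10.2% at t1 to t4 with the most abundant model removed, and 17.4% at t1, 13.1% at t3 and 10.6% at t4 over TMM effective library sizes. Counts divided by the factors kept 17 of the 50 members.

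With each library left out in turn, 46 to 49 members changed over the course. The ranges were 7 to 10 higher and 20 to 23 lower at t2, 7 to 11 higher and 19 to 22 lower at t3, 3 to 5 higher and 21 to 27 lower at t4 against t3, and 10 to 11 higher and 35 lower at t4 against t1. Shares were 15.4% to 15.5% at t1, 14.7% to 14.9% at t2, 13.7% to 13.8% at t3 and 11.2% to 11.5% at t4, and 47 to 49 members remained. Between 9843577 and 13595446 reads per library, counting error was below the spread between replicates for these models, and the 3 replicates set the precision.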
